A study of Mus musculus with 8 samples.

Results

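The genes of the cytosolic ribosome were followed across 8 subcutaneous MC38 tumors profiled by bulk RNA-seq. Members were taken by symbol alone: every gene of the count table named Rpl or Rps followed by a digit, together with Rplp0, Rplp1, Rplp2 and Rpsa, without the Rps6k kinases and the annotated "-ps" pseudogenes, and with a total of at least 80 raw counts over the tumors. Of the 24421 genes in the table, 88 carried such a symbol and 87 reached the minimum. The group holds 46 proteins of the large subunit and 31 of the small subunit, referred to here as the 77 canonical members, plus 9 paralogs and Rps19bp1, which encodes a binding partner of a ribosomal protein and no ribosomal protein itself. The rule itself uses no measured difference between tumors, although the group was chosen with earlier results of these data known. Just inside the minimum lay Rpl39l with 128 counts in all, Rpl3l with 210 and Rps4l with 395, and the single gene outside it was Rpl10l, at 0 counts.

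MC38 is a mouse colon adenocarcinoma line of the C57BL/6 strain. Female mice expressing Kaede, a fluorescent protein that turns from green to red under violet light, received 250000 of these cells at an age of 9 weeks in both groups. In the Photoconverted group (n = 4) the tumor was lit at 405 nm for 3 min on day 10, whereas in the Control group (n = 4) it was not lit, and tumors of both groups were collected 5 h later. The RNA therefore comes from whole tumors, in which tumor cells and host cells are mixed, and fewer cells of a type cannot be told apart from less RNA per cell. The sources do not tie the 8 libraries to named animals, so the p-values measure the spread between these 8 samples.

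Each cytosolic ribosome is built from a copy of most of these proteins and from ribosomal RNA, which RNA polymerase I transcribes as a long 45S precursor (Rn45s in the count table). The small subunit reads the mRNA, and the large subunit joins amino acids and carries a flexible stalk made of Rplp0, Rplp1 and Rplp2, which recruits the elongation factors. Ribosomal protein mRNAs are among the most abundant of a growing cell. Many of them begin with a run of pyrimidines, the TOP motif, through which mTORC1 signaling controls their translation, and the introns of many of their genes hold small nucleolar RNAs (snoRNAs) that guide the chemical modification of ribosomal RNA.

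The transcription starts of members on which the results turn are shown to let the pyrimidine run be compared between genes that behaved in different ways. Each is a 40-base window of RefSeq sequence on GRCm38.p6 (mm10), written 5′ to 3′ on the strand of the gene, with 20 bases before the annotated start. Capitals mark the longest run of C and T that comes within 5 bases of the start.
Rps2 (chr17:24720043-24720082, plus strand): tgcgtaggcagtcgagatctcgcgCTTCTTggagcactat
Rps9 (chr7:3704021-3704060, plus strand): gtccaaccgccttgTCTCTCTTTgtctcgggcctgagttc
Rplp2 (chr7:141447631-141447670, plus strand): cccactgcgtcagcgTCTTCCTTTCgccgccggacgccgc
Rplp0 (chr5:115559447-115559486, plus strand): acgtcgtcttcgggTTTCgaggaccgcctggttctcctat
Rpl31 (chr1:39367831-39367870, plus strand): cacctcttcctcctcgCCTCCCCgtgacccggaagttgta
Rpl39 (chrX:37085203-37085242, minus strand): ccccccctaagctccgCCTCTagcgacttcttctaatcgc
Rpl34 (chr3:130730318-130730357, minus strand): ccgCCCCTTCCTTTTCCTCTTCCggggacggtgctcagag

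Starts were found in the RefSeq table for 66 of the 87 members. At least 1 start with a C/T run of 8 bases or more was present in 24 of the 66 members (36.4%), against 10.96% of the 27025 genes in that table, and a run of 5 or more in 36 members (54.5%, against 35.1%). The annotated first base was a C in 34.8% of members and in 18.9% of all genes. Within 300 bases around the start, and on either strand, CCGGAAG, the core bound by the ETS factor GABPA, occurred in 39.4% of members and 9.93% of all genes. GCCATC, a core of the YY1 site, occurred in 24.2% against 15.9%, and TATAAA in 10.6% against 15.7%. The 27025 genes were not limited to those expressed in these tumors, so a contrast with expressed genes alone was not examined. Each motif was counted on its own, and a window can hold more than one. A match is a string of letters in an annotated window and no evidence of binding.

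Most members were abundant, with 79 of the 87 above the 95th percentile of all genes by mean level over the 8 tumors. Levels were compared as CPM (counts scaled to a common library size) per kb of transcript, so that long and short mRNAs could be set side by side. Over the canonical members the mean level of the 8 tumors ran from 93.1 to 2114 CPM per kb with a median of 606, whereas the median of all genes with a known length was 8.75. The lowest canonical member stood above 94.7% of those genes. The median was 599 for the large subunit and 697 for the small subunit.

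Rps2, a small-subunit protein near the site where mRNA enters, was the highest at 2114 ± 851 CPM per kb (SD, n = 8). It was followed by Rpl41, a very short basic peptide of the large subunit, at 1930 ± 252, the stalk proteins Rplp0 at 1590 ± 258 and Rplp1 at 1545 ± 410, and Rpl13 at 1497 ± 256. Neighbors in this order lay closer than the SD of either, apart from Rpl41 and Rplp0. The lowest canonical members were Rps20 at 93.1 ± 9.04, Rps16 at 232 ± 43.9, Rpl37 at 264 ± 65.2, Rpl24 at 268 ± 129 and Rpl17 at 272 ± 48.0 CPM per kb. The value of Rps20 rests on a transcript of 3706 bases with an annotated 3′ UTR of 3167 bases, which lowers its level per kb. Long annotated 3′ UTRs also lower Rps16 (516 of 1109 bases) and Rpl37 (504 of 835 bases). Without scaling by length, Rps16 and Rpl37 averaged 258 and 220 CPM, above Rpl24 at 181 CPM. The order at the low end therefore depends on the transcript chosen. Rps16 lay above Rps20 by more than the SD of either, whereas Rps16, Rpl37, Rpl24 and Rpl17 lay closer to one another than that.

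**Figure D1:**
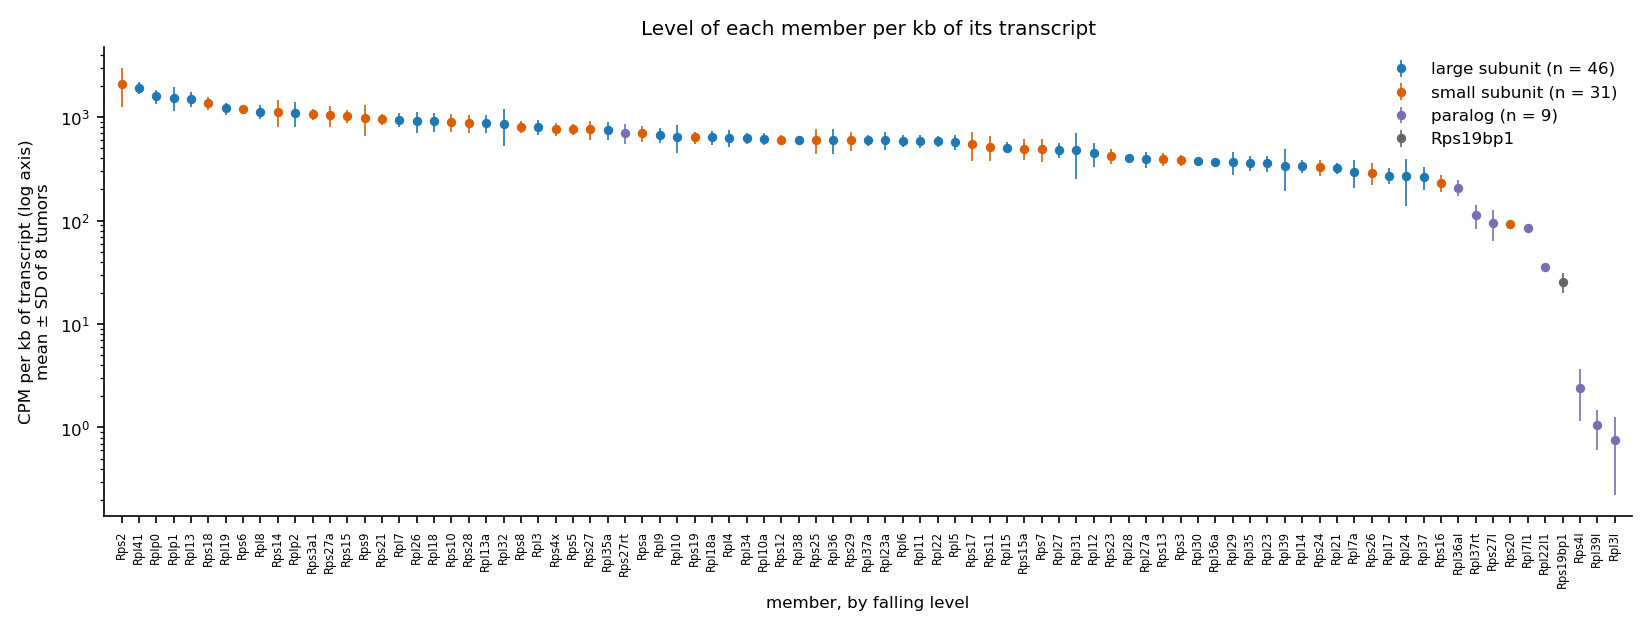
Mean level of each of the 87 members in CPM per kb of transcript (log axis, bars SD over 8 tumors), ordered from high to low and colored by subunit. The canonical members run from 2114 for Rps2 to 93.1 for Rps20, and 8 of the 9 paralogs lie at the low end, down to 0.749 for Rpl3l.

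The paralogs split into abundant copies and rare ones. Rps27rt, an intronless copy of Rps27, had 99.1 to 99.8 counts per 100 counts of Rps27 in the 8 tumors. Its coding sequence of 255 bases is identical to that of Rps27, so reads within that sequence cannot be told apart. The annotated 3′ UTRs differ in length, 87 bases in Rps27rt and 54 in Rps27, and which reads were counted for each gene was not examined. The levels of both genes were treated as uncertain. Rpl36al, whose coding sequence is 87.8% identical to that of Rpl36a, reached 50 to 74.1 counts per 100 of its parent. Rps27l had 11.6 to 20.5 per 100 of Rps27 at 76.1% identity, Rpl37rt, annotated as a transcribed processed pseudogene, had 12.8 to 16.3 per 100 of Rpl37, Rpl7l1 had 8.12 to 11.8 per 100 of Rpl7 at 64.9% identity, and Rpl22l1 had 5.75 to 8.39 per 100 of Rpl22 at 72.7% identity.

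The remaining 3 paralogs were close to the limit of detection. Rpl39l had 3 to 29 raw counts per tumor and 0.162 to 0.474 per 100 counts of Rpl39. Rps4l, also annotated as a transcribed pseudogene, had 8 to 93 raw counts and 0.0758 to 0.537 per 100 of Rps4x. Rpl3l, the form of Rpl3 made in skeletal and cardiac muscle, had 26, 42, 68 and 7 raw counts in photoconverted tumors 1 to 4 and 19, 8, 29 and 11 in controls 1 to 4. The summed CPM of the 12 skeletal muscle markers was 506, 858, 1709 and 206 in the photoconverted tumors and 368, 433, 499 and 207 in the control tumors. Photoconverted tumor 3 was thus the highest and photoconverted tumor 4 the lowest in both. The part of admixed muscle in the level of Rpl3l was not tested.

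Depth and ribosomal RNA content differed widely between the libraries. Total counts ranged from 12576615 to 35844417. Rn45s took 4.14%, 9.65%, 4.60% and 21.9% of counts in photoconverted tumors 1 to 4 and 2.70%, 35.7%, 4.70% and 23.2% in controls 1 to 4, so that 5 tumors lay under 10% and 3 above it, in both groups. Markers of simple epithelium (Krt8, Krt18, Krt19, Epcam and Cdh1), which a colon carcinoma might carry, were near the floor, with summed levels of 2.14 to 5.37 CPM, and their defining gene Epcam had 1 to 14 raw counts per tumor. Fibroblast markers summed to 3247 to 4654 CPM in 7 tumors and to 12469 CPM in control tumor 2, where Col1a1, Col1a2 and Col3a1 carried the sum and Pdgfra (93.4 CPM), Pdgfrb (79.3 CPM) and Dcn (40.2 CPM) did not. Leukocyte markers summed to 168 to 507 CPM.

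The first comparison asked whether violet light had altered ribosomal protein mRNA by the time the tumors were collected. The members summed to 5.30%, 4.85%, 4.76% and 5.10% of the counts outside Rn45s in photoconverted tumors 1 to 4, and to 5.20%, 4.34%, 4.73% and 5.64% in controls 1 to 4. The lowest and the highest share both belonged to control tumors, and the groups overlapped throughout. The mean was 5.00% ± 0.245 (SD, n = 4) with light and 4.98% ± 0.563 (SD, n = 4) without, a difference of 0.024 percentage points that was smaller than either SD. Within the 5 tumors below 10% Rn45s the difference was 0.00576 percentage points.

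The 2 subunits did not separate the groups either. Large-subunit members held 2.93% ± 0.157 of counts outside Rn45s with light and 2.88% ± 0.383 without (SD, n = 4 each), and small-subunit members held 2.00% ± 0.123 and 2.03% ± 0.198. The 3 stalk genes together held 0.389% ± 0.0359 and 0.398% ± 0.0628. In all 3 cases the difference was smaller than the SD of either group.

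Gene by gene, 0 of the 87 members passed an adjusted p of 0.05 in edgeR's quasi-likelihood test, against a background of 0% of the 14468 genes tested, and 0 members had an unadjusted p under 0.05, as had 322 of all genes. DESeq2's Wald test also called 0 members, beside 24 of the 20557 genes that it gave an adjusted p (0.117%). The CPM values of the 2 groups did not overlap for 0 members, whereas 0.684% of all genes were higher in every photoconverted tumor than in any control tumor and 0.643% were lower. The log2 fold change was positive for 63 members and negative for 24, with a median of 0.083. Over all genes tested it was positive for 6768 and negative for 7699, with a median of -0.01. The median of the members turned to -0.01 without control tumor 2 and rose to 0.15 without control tumor 4. Standard errors of single members ran from 0.11 to 0.53 with a median of 0.18, so a change of about that size in a single gene was not detectable with 4 tumors a group.

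The stalk and Rpsa, the small-subunit protein also known as the laminin receptor, are given in full, with gene positions on GRCm38 (mm10) from GENCODE. Rplp0 (chr5:115559467-115563727) was at 2263, 2096, 2047 and 2355 CPM in photoconverted tumors 1 to 4 and at 2141, 1610, 1936 and 2825 CPM in controls 1 to 4. The photoconverted values lay inside the range of the controls, at a log2 fold change of 0.04 (standard error 0.19, adjusted p = 0.999). Rplp1 (chr9:61913284-61914542) was at 632, 716, 617 and 994 CPM with light and at 599, 978, 571 and 1061 CPM without. In either group the tumors with much Rn45s were the higher ones, and light gave a log2 fold change of -0.12 (standard error 0.25, adjusted p = 0.999).

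Rplp2 (chr7:141447370-141451585) was likewise higher in the tumors with much Rn45s, with 401, 464, 345 and 569 CPM in photoconverted tumors and 334, 666, 353 and 599 CPM in control tumors. The groups overlapped, with a log2 fold change of -0.13 (standard error 0.26, adjusted p = 0.999). Rpsa (chr9:120127689-120132369) was at 1046, 1071, 959 and 1291 CPM with light and at 1010, 1157, 916 and 1471 CPM without. Again the groups overlapped, at a log2 fold change of -0.06 (standard error 0.18, adjusted p = 0.999). The direction of each of these 4 genes changed sign under at least 2 alternative fits.

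The 5 members with the smallest unadjusted p for light were all higher in photoconverted tumors on average, and none came near the threshold. For Rpl34, a protein of the large subunit, the photoconverted tumors had 340, 329, 280 and 338 CPM and the control tumors 288, 231, 275 and 321 CPM. Photoconverted tumor 3 lay below 2 of the controls, and light gave a log2 fold change of 0.21 (standard error 0.13, unadjusted p = 0.156 and adjusted p = 0.999 from edgeR). Rpl35, Rpl29 and Rps28 stood at 0.20, 0.28 and 0.21. Rpl3l had the largest value of all members at 0.75 with a standard error of 0.53, on the few counts given above. In all 9 paralogs the log2 fold change was positive, between 0.03 and 0.75, and 0 of them had an unadjusted p under 0.05 in edgeR. Of the 14467 genes in the background, 6768 had a positive value.

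**Figure D2:**
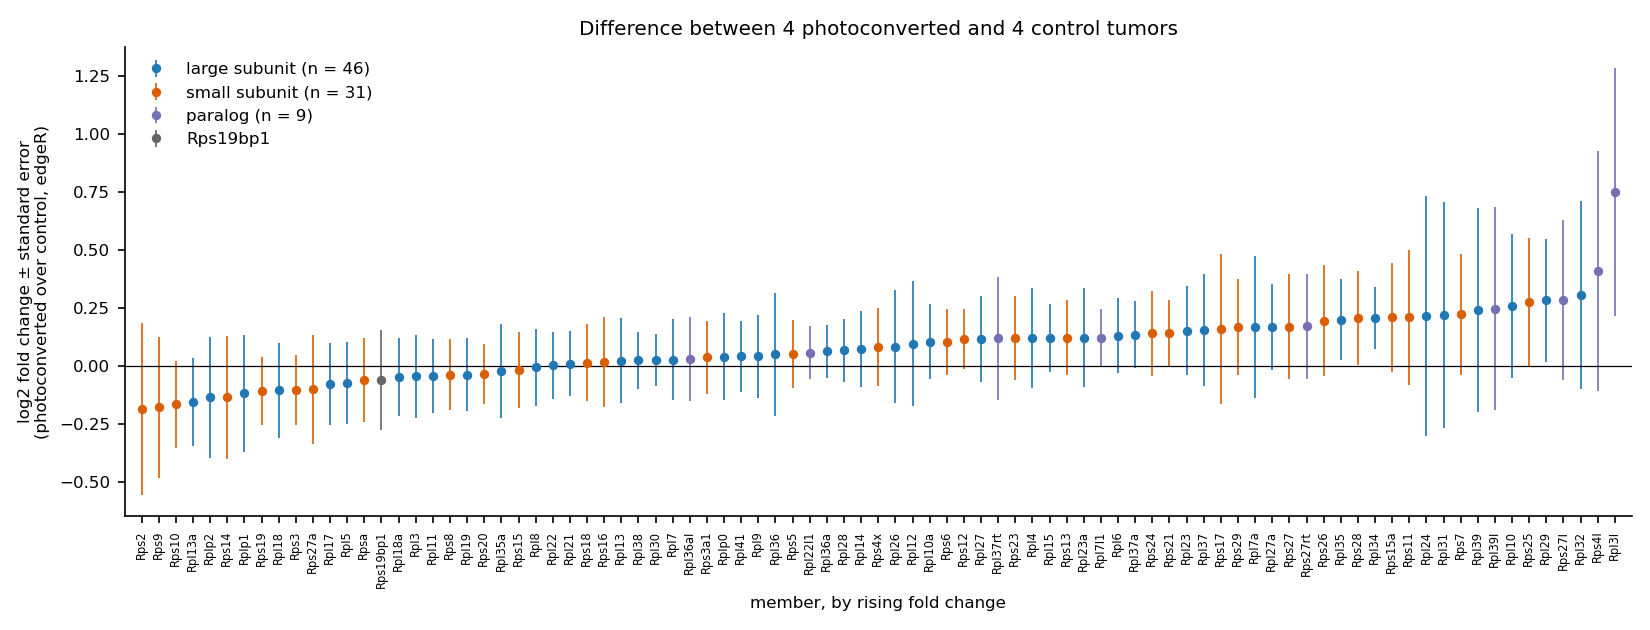
Log2 fold change of each member between 4 photoconverted and 4 control tumors (edgeR, bars standard error), ordered from low to high and colored by subunit. Values run from -0.18 for Rps2 to 0.75 for Rpl3l, and 0 of the 87 members passed the threshold.

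The second comparison set the members against the Rn45s share. The 3 tumors with much Rn45s differed from one another in summed level, and control tumor 2 with the highest Rn45s share (35.7%) had the lowest sum of members (4.34%), whereas control tumor 4 at 23.2% had the highest (5.64%). The sum therefore had no single direction. The balance of the subunits went with the Rn45s share with Rps2 counted, and less clearly without it. Large-subunit members had 1.53, 1.43, 1.53 and 1.36 counts per small-subunit count in photoconverted tumors 1 to 4 and 1.53, 1.25, 1.49 and 1.41 in controls 1 to 4, which means that the 3 tumors above 10% Rn45s had the 3 lowest ratios. With Rps2 left out of the small subunit the ratios were 1.67, 1.61, 1.68 and 1.62 in photoconverted tumors and 1.67, 1.55, 1.64 and 1.66 in control tumors. Control tumor 4 then lay above control tumor 3, and photoconverted tumor 4 above photoconverted tumor 2. The tumors above 10% Rn45s no longer held the 3 lowest ratios, although control tumor 2 still had the lowest. Rps2 was the member that rose most with the Rn45s share, so leaving it out weakens the trend by construction. These sums over members were not tested.

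**Figure D3:**
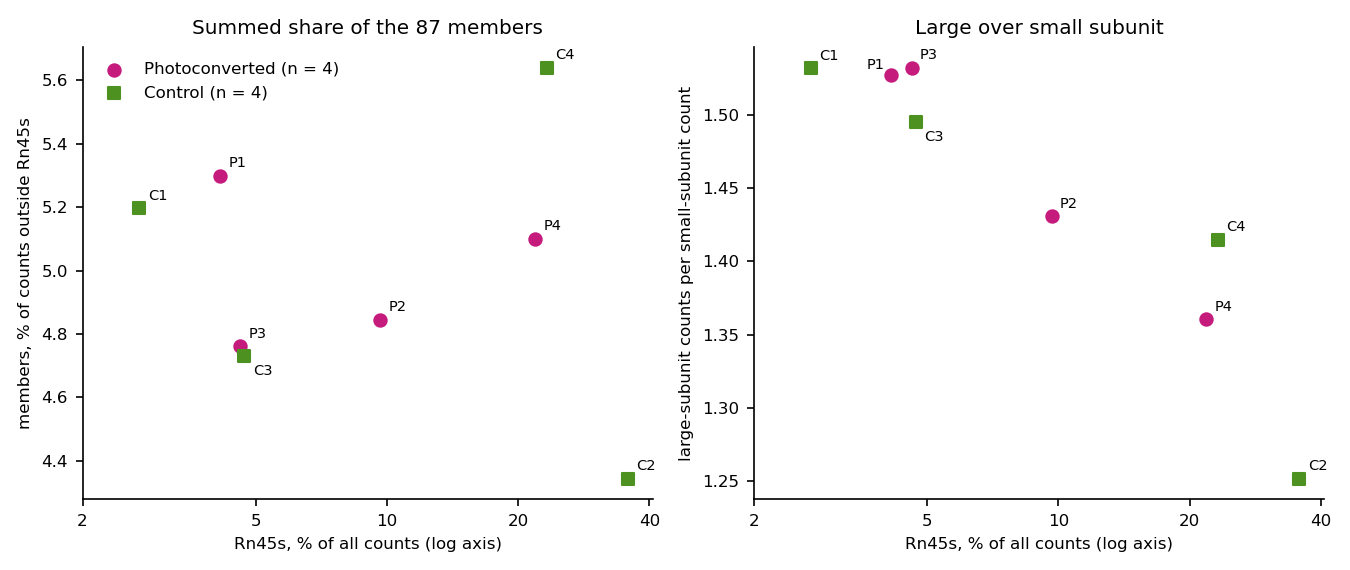
Left, summed share of the 87 members in the counts outside Rn45s (%); right, large-subunit counts per small-subunit count; both against the Rn45s share of all counts (%, log axis), 1 point per tumor (P, photoconverted; C, control; the number is the replicate). The summed share spans 4.34% to 5.64% with both ends among the controls rich in Rn45s, while the ratio, with Rps2 counted, falls from 1.53 to 1.25.

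In a fit with the light group and log2 of the Rn45s share, the slope is the log2 change of a gene per doubling of that share. Of the 87 members, 40 passed an adjusted p of 0.05 in edgeR (46%), which is close to the background of 46.4% of all 14467 genes tested for the slope, the members among them. Of these members 14 rose and 26 fell with the Rn45s share, where 23.8% of all genes rose and 22.6% fell. The median slope was -0.03 for the members and -0.01 for all genes. Among large-subunit members 7 rose and 13 fell, among small-subunit members 6 rose and 10 fell, and among the paralogs 0 rose and 3 fell. Rps27rt and its parent Rps27 are both in these counts, although reads within their coding sequence cannot be told apart. The remaining 47 members did not pass the threshold.

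The replicate numbers carried much of the same contrast. Tumors with the same number had similar shares in the 2 groups, apart from number 2, and with the replicate number as a block 0 members and 0 genes passed. The count was 26 members (29.9%) without photoconverted tumor 4 and also without control tumor 1, where 36.7% and 34.6% of all genes passed. Without control tumor 2 it was 42 (48.3%, against 48.4% of all genes), with 23 that rose and 19 that fell, and without control tumor 4 it was 52 (59.8%, against 43.8%), with 12 that rose and 40 that fell. The share of Rn45s went together with low depth, and the part of either in the slopes was not tested.

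The 5 members with the largest positive slopes were Rps2, Rps9, Rplp2, Rplp1 and Rps14, of the small subunit and the stalk. Rps9 (chr7:3703993-3706897), which lies near the mRNA entry channel as Rps2 does, was at 574, 688, 531 and 964 CPM in photoconverted tumors 1 to 4 and at 510, 1097, 520 and 990 CPM in controls 1 to 4. The 3 tumors above 10% Rn45s held 964 to 1097 CPM and the 5 others 510 to 688 CPM, without overlap. The slope was 0.33 (standard error 0.03, adjusted p = 0.000144 in edgeR, 0.112 with the replicate block).

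Rps2 (chr17:24718116-24721929) showed the largest slope, 0.40 (standard error 0.04, adjusted p = 0.000189 in edgeR, 0.112 with the replicate block). It was at 1512, 1920, 1391 and 3079 CPM in photoconverted tumors and at 1376, 3198, 1349 and 3056 CPM in control tumors. Its part of all member CPM went from 3.24% in control tumor 1 to 8.51% in control tumor 2. The snoRNA Snora64 lies inside Rps2, and the antisense gene Snhg9 overlaps it on the other strand. Without knowledge of how the counting used strand, reads of Rps2 and Snhg9 could not be told apart.

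Rplp2 had a slope of 0.28 (standard error 0.03, adjusted p = 0.000256 in edgeR, 0.130 with the replicate block) and Rplp1 of 0.25 (standard error 0.04, adjusted p = 0.00089), on the CPM values given above. In both genes the 3 tumors above 10% Rn45s lay higher than the 5 others. Rplp0, the partner that anchors these proteins to the ribosome, had a slope of 0.02 (standard error 0.06, adjusted p = 0.847), and its levels overlapped between the tumors with much and little Rn45s. Rpsa rose with a slope of 0.13 (adjusted p = 0.0395), a call that was lost in 9 of 17 alternative fits and whose sign turned in 1 more. Other members that rose were Rps14, Rps27a (a fusion of ubiquitin with a ribosomal protein), Rps16, Rpl35a, Rpl18, Rpl3, Rpl17 and Rpl7, with slopes from 0.12 to 0.25, and Rps19bp1 at 0.20.

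The 4 most negative slopes belonged to proteins of the large subunit, Rpl24, Rpl31, Rpl39 and Rpl32. Rpl24 (chr16:55966275-55971435), which forms a bridge to the small subunit, was at 277, 163, 244 and 94.9 CPM in photoconverted tumors and at 280, 42.4, 215 and 133 CPM in control tumors. Control tumor 2 had the lowest and control tumor 1 the highest value, at the 2 ends of the Rn45s range. The slope was -0.57 (standard error 0.09, adjusted p = 0.000985 in edgeR, 0.0983 with the replicate block).

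Rpl31 (chr1:39367842-39371911), near the exit of the peptide tunnel, was at 349, 199, 337 and 123 CPM in photoconverted tumors and at 363, 68.7, 267 and 166 CPM in control tumors. The slope was -0.55 (standard error 0.07, adjusted p = 0.000352 in edgeR, 0.103 with the replicate block). The protein-coding gene Tbc1d8 overlaps Rpl31 on the other strand. Rpl39 (chrX:37082520-37085402), which lines the tunnel, was at 324, 200, 252 and 127 CPM with light and at 303, 67.8, 248 and 142 CPM without, and its slope was -0.50 (standard error 0.06, adjusted p = 0.000275 in edgeR, 0.0963 with the replicate block). In all 3 genes the tumors above 10% Rn45s lay below the 5 others.

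Rps27l, Rps27rt and Rpl37rt were the paralogs that fell, with slopes of -0.35, -0.19 and -0.25, and their parents Rps27 and Rpl37 fell with slopes of -0.18 and -0.24. Reads of Rps27rt and Rps27 cannot be told apart, so their like slopes are not separate results. For Rpl37rt the identity with Rpl37 was not computed, and shared reads were not examined. Rpl39l, the copy of Rpl39, had a slope of -0.29 with a standard error of 0.17 and did not pass (adjusted p = 0.185). For Rpl3l and its parent the slopes had opposite signs, -0.14 for Rpl3l (adjusted p = 0.647) and 0.15 for Rpl3 (adjusted p = 0.0128), and the difference between them was not tested.

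**Figure D4:**
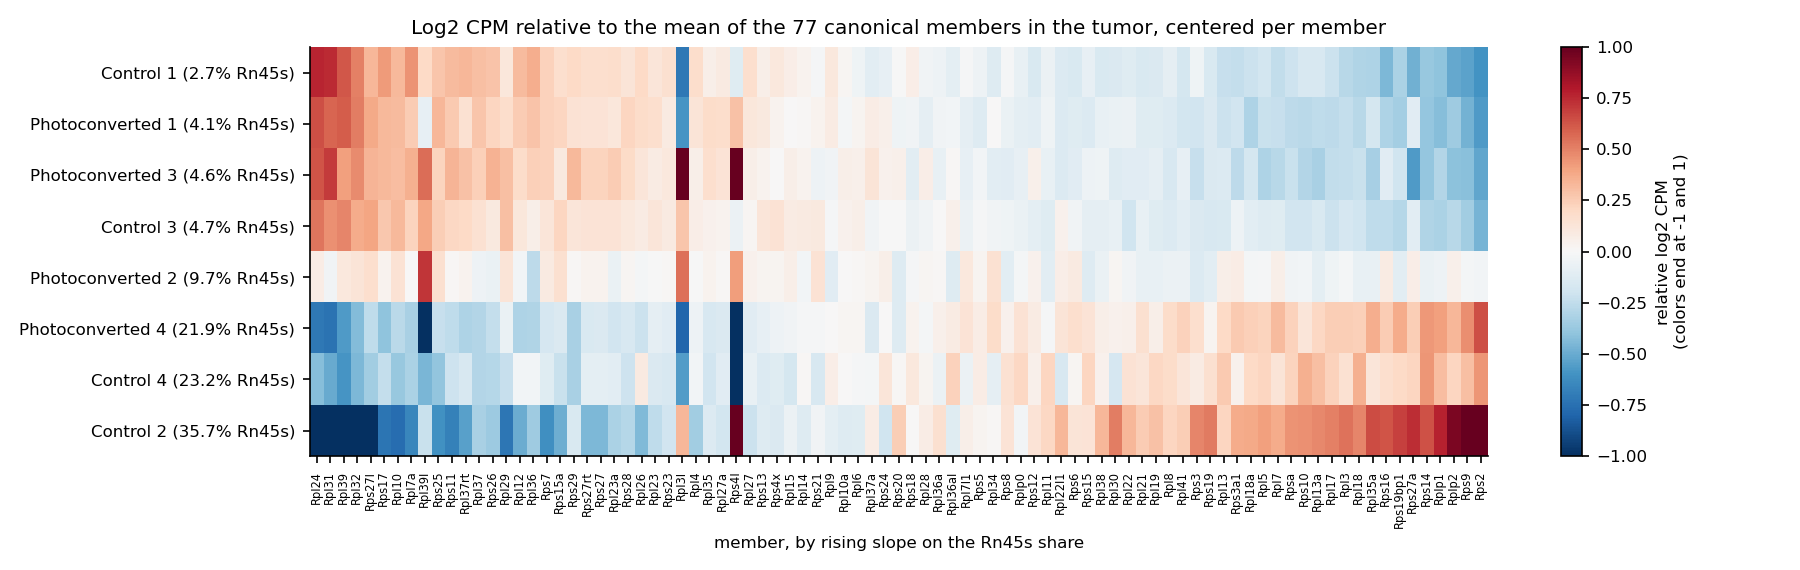
Relative log2 CPM of each member in each tumor, taken against the mean of the 77 canonical members in that tumor and then centered per member (color scale from -1 to 1), with tumors ordered by Rn45s share and members by slope. Rpl24 runs from 0.76 in control tumor 1 to -1.50 in control tumor 2 and Rps2 from -0.59 to 1.08, and photoconverted tumor 2, at 9.65% Rn45s, lies between the 2 sets of tumors.

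Members differed in how much they varied relative to the others. The SD over the 8 tumors of a member's log2 level relative to the canonical members had a median of 0.22 and reached 0.81 for Rpl24, 0.74 for Rpl31 and 0.65 for both Rpl39 and Rps2, and 0.93 and 0.80 for the sparsely counted Rps4l and Rpl3l. It was lowest for Rpl28 at 0.05, with Rpl10a and Rpl6 at 0.06. Across members, which share libraries and are no independent replicates, the slope went with the mean log2 CPM (Spearman's rho 0.50, n = 87), more highly counted members having the more positive slopes.

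Base composition moved with the slopes over the whole table. With all genes split into 5 equal bins by the GC content of the transcript, the median slope of all genes went from -0.17 in the lowest bin over -0.07, -0.01 and 0.06 to 0.17 in the highest, and Spearman's rho between slope and GC content was 0.57 (n = 13898 genes). Among the members rho was 0.24 (n = 87). The 14 members that rose had a median GC content of 54.7% and the 26 that fell 50.7%. From the lowest to the highest bin, which held 3, 24, 20, 24 and 16 members, the median slope of the members was 0.03, -0.12, -0.10, -0.02 and 0.08. It lay above that of all genes in the lowest bin and below it in the other 4. In the same order of bins 0, 4, 2, 3 and 5 members rose and 0, 9, 7, 7 and 3 fell. Over all genes tested, with no split by bin, 23.8% rose and 22.6% fell. The share of all genes called within each bin was not computed. With offsets that remove the trend on GC content, an alternative added after the data were seen, 39 members passed, 17 that rose and 22 that fell, of which 31 were shared with the fit without offsets, and 32.8% of all genes passed. Rps2 and Rps9 then had slopes of 0.29 and 0.27 and Rpl31 and Rpl24 of -0.60 and -0.56, whereas Rpsa no longer passed.

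**Figure D5:**
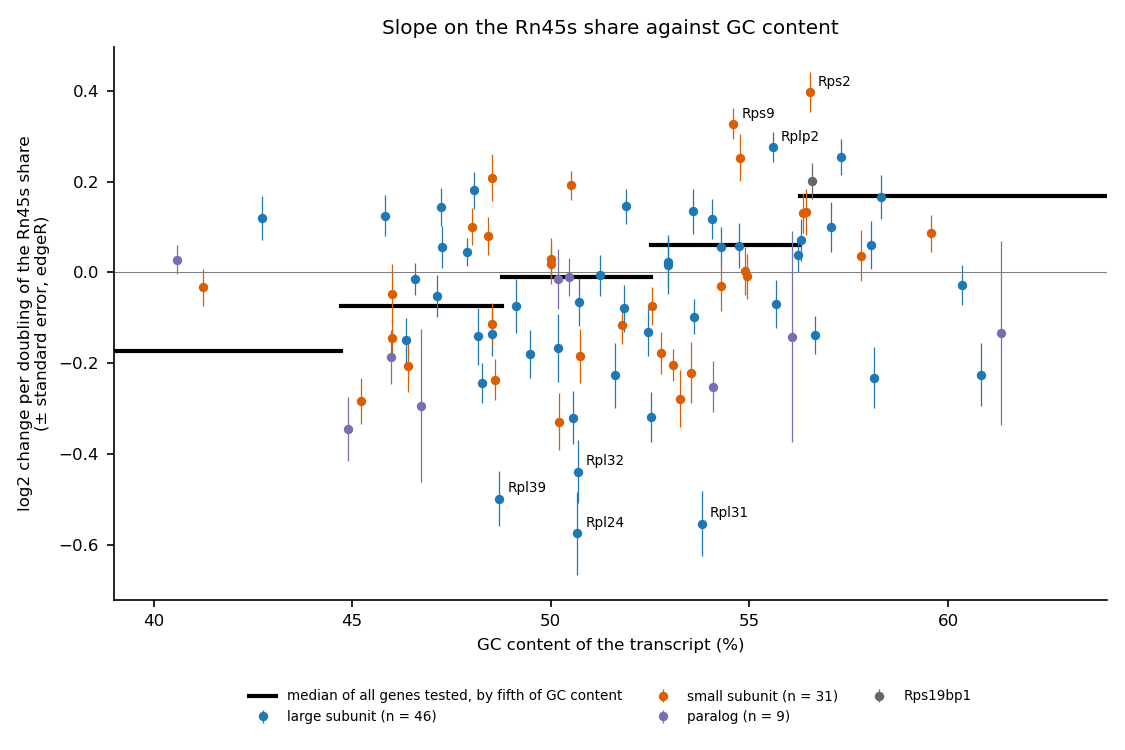
Slope of each member on the Rn45s share (log2 change per doubling, bars standard error) against the GC content of its transcript (%), colored by subunit; black bars give the median of all genes tested in each of 5 bins of GC content. The black bars climb from -0.17 to 0.17, while Rpl31, Rpl24 and Rpl39 lie far below them and Rps2 and Rps9 above.

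Pyrimidine runs and hosted snoRNAs were found among the members that rose and among those that fell. Of the 24 members with a C/T run of 8 bases or more at the start, 4 rose and 6 fell (median slope -0.03), of the 12 with a run of 5 to 7 bases 1 rose and 6 fell (-0.17), and of the 30 with a run under 5 bases 3 rose and 7 fell (-0.01). These classes were not tested against each other. Over all genes tested 23.8% rose and 22.6% fell. That background holds for these classes and for the snoRNAs and hosts below. Rps9 and Rpl31, printed above with runs of 9 and 7 bases, moved in opposite directions. Of the 30 members that host annotated snoRNAs, 6 rose and 9 fell. Inside member genes 58 snoRNAs are annotated and 33 of them are in the count table. Of the 32 tested, 9 rose and 0 fell with the Rn45s share, with a median slope of 0.13, and reads of a snoRNA and of its host cannot be separated with certainty where they overlap.

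Ribosomal proteins with other symbols and the remaining machinery of translation were described in the same fit. Fau had a slope of 0.13 (adjusted p = 0.0568) and Gnb2l1, now called Rack1, of -0.03 (adjusted p = 0.672). Of the 77 nuclear genes for mitochondrial ribosomal proteins, 31 rose and 13 fell with a median slope of 0.06. Mrpl12 rose (slope 0.48, adjusted p = 5.65e-05) and Mrpl42 fell (slope -0.51, adjusted p = 0.000146). Whether these counts differ from those of the cytosolic members was not tested.

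Among 40 factors that assemble ribosomes in the nucleolus, 22 rose and 1, Nop10, fell, with a median slope of 0.13, and among 20 subunits and factors of RNA polymerase I 7 rose and 2 fell. Of 10 elongation factor genes 4 rose and 0 fell, and of 53 initiation factor genes 13 rose and 12 fell. Of 17 other mRNAs known for a TOP motif, 4 rose and 3 fell, with Eif3e at a slope of -0.39 and Eef1b2 at 0.21. Of 18 regulators in the mTORC1 and Myc pathways 8 rose and 1 fell, and Myc, the transcription factor that drives ribosome production, had a slope of 0.37 (adjusted p = 0.00046 in edgeR). Of 7 annotated ribosomal protein pseudogenes 1 rose and 2 fell, and of 95 snoRNAs 33 rose and 4 fell. For light, 0 genes of any of these lists passed. These lists overlap in part. As background for these counts and for those of the mitochondrial ribosomal proteins, 23.8% of all genes rose and 22.6% fell. In either direction 46.4% of all genes passed.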

How the data were processed

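For 8 tumors the authors deposited raw read counts by gene symbol, and for 19823 of the genes a normalized signal, which equaled the deposited counts divided by size factors. The labels' processing notes name CASAVA, FastQC, Trim Galore, HISAT2, featureCounts and DESeq2 and the build mm10, with no versions or strand settings. The labels and the paper's methods name different stranded total RNA kits. Raw counts were fitted with edgeR 4.0.16 (R 4.3.3; TMM, expression filter, quasi-likelihood test, Benjamini-Hochberg adjustment over all genes tested, threshold 0.05), and DESeq2 1.42.0 was an alternative. CPM values came from the TMM-scaled library sizes. All 87 members passed the expression filter. Lengths and GC content came from GENCODE transcripts (the shortest coding transcript with the best annotation), found for 95.7% of table genes. Members and lists were chosen with earlier results of these data known. Named genes were the stalk genes and Rpsa, the 5 highest and 5 lowest canonical members per kb, the 5 smallest p-values per fit, paralogs with their parents, the members nearest the count minimum, and up to 3 genes of each other list with the smallest p; Rpl32, Rpl28, Rpl10a, Rpl6, Rps14, Rps27a, Rpl35a and Rpl18 were named after their values were seen. Both groups carry replicate numbers 1 to 4. Deviations from the group means correlated with r of 0.597, 0.107, 0.407 and 0.623 in same-numbered pairs over all genes, all over 0.1. The numbers were therefore treated as a possible pairing, with a replicate block in alternative fits, and the main fits were unpaired. The labels state no pairing, and tumors with different numbers reached 0.482, 0.455 and 0.346, so pairing is not established. The procedures were tested on simulated data.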

Additional observations from a re-analysis of the deposited data

Results flagged for a closer look

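Of 82 groups of 4 tumors examined for single members, 3 held a tumor far from the other 3 by Dixon's criterion, where chance alone gives about 4.1. Control tumor 4 had 1044 CPM of Rpl41 and 1580 CPM of Rpl13, against nearest control values of 782 and 1040 CPM. Photoconverted tumor 4 had 26.9 CPM of Rps19bp1, against a nearest value of 19.2 CPM in its group. Both tumors are among the 3 with an Rn45s share above 10%, and the part of that share in these values was not tested.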

How the results depend on the processing

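With the replicate block, and with the replicate block together with offsets for GC content, the count of members past the threshold on the Rn45s share was 0 in place of 40. The median slope went from -0.03 to -0.15 with the block, -0.06 with the offsets and -0.16 with both. The block leaves few degrees of freedom beside the Rn45s share, and the cause of the lost calls was not tested. It changed no call for light. The difference in the summed share is 0.024 percentage points with pairing as without, by construction, and the 4 paired differences ran from -0.540 to 0.501. DESeq2 called 51 members on the Rn45s share (58.6%), beside 33.9% of 20564 genes with no filter on low counts. The split at 10% Rn45s called 33 (37.9%, beside 42.8% of all genes), of which 18 rose and 15 fell, in place of 14 and 26.

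Leaving out 1 tumor at a time, the members called on the Rn45s share numbered 26 to 52, with 26 both without photoconverted tumor 4 and without control tumor 1, and their median slope ran from -0.09 to 0.03. The number called for light stayed at 0 in every fit, the median log2 fold change of light ran from -0.01 to 0.15, and the difference in the summed share from -0.187 to 0.245 percentage points. The light value of Rplp0 ran from -0.072 to 0.21, of Rplp1 from -0.29 to 0.047, of Rplp2 from -0.28 to 0.051 and of Rpsa from -0.15 to 0.086, and the slope of Rplp0 from -0.054 to 0.11.

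In tumors under 10% Rn45s the light values of Rplp1, Rplp2 and Rpsa turned to 0.16, 0.23 and 0.090. With the Rn45s share as a covariate that of Rplp2 turned to 0.0065, and with GC offsets and the block that of Rpsa to 0.0035. The slope of Rplp0 turned to -0.16 with the block, -0.0071 with GC offsets and -0.20 with both, and the slope of Rpsa to -0.069 with both. Over the named members, 143 of 153 light values kept their sign and side of the threshold, as did 110 of 136 slopes, of which 21 lost their call and 5 turned. Depth limits chiefly Rpl39l, Rpl3l and Rps4l, with 3 to 93 raw counts per tumor.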
